A study of Mus musculus with 6 samples.

Results

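The genes described here encode 10 mouse enzymes of serine synthesis, folate-dependent one-carbon metabolism and phosphoenolpyruvate carboxykinase (PEPCK). They were chosen by name: the rows of the deposited table whose Ensembl identifiers map to Phgdh, Psat1, Psph, Shmt1, Shmt2, Mthfd1, Mthfd2, Mthfd1l, Aldh1l2 and Pck2. All 10 were found among 57180 identifiers, and all 10 were among the 11753 genes that reached 1 TPM in at least 3 libraries and were tested. TPM is a length-adjusted share of each library's transcripts, scaled to the same total in every library, so levels may be compared between genes, but it keeps no sequencing depth.

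The libraries came from wild-type mouse bone marrow-derived macrophages held for 5 days under conditions that turn macrophages into bone-resorbing osteoclasts. In the control group (3 libraries) the cells received no Visomitin, and in the Visomitin group (3 libraries) they did. Visomitin, also known as SkQ1, is an antioxidant linked to a cation that carries it into mitochondria; the labels used here give neither its dose nor the age of the mice. Nothing in the labels says that the libraries of a group came from separate mice or cultures, and p-values are therefore relative to a spread between libraries that could be purely technical. These are bulk samples, in which fewer cells of a type and less RNA per cell cannot be told apart.

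Serine is made in the cytosol from a glycolytic intermediate by PHGDH, PSAT1 and PSPH in turn. Serine hydroxymethyltransferase then moves a carbon from serine to folate, and parallel sets of enzymes in the mitochondrion and in the cytosol carry that carbon as folate intermediates and as formate. In many proliferating cells the mitochondrial set supplies formate that the cytosolic set uses for purines and thymidylate. PCK2 is the mitochondrial PEPCK, which makes phosphoenolpyruvate from oxaloacetate. Several of these genes are known targets of ATF4, the transcription factor of the integrated stress response.

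All 8 macrophage markers were detected in both groups, among them Csf1r at 1150 to 1922 TPM. Their summed level, most of it Lyz2, was 36300 to 40700 TPM in control and 42000 to 47200 TPM with Visomitin, without overlap. Lyz2 alone was at 32021 to 36284 TPM in control and 38065 to 42065 TPM with Visomitin (0.21, limma adjusted p = 0.18). Of the 8, 1 rose, Mertk (0.57, adjusted p = 0.022), and 0 fell. Ranges did not overlap for 5 of the 8, and for 30.4% of all tested genes. Among the 5, Adgre1, Itgam, Lyz2 and Mertk were higher, and Cd68 was lower (-0.20, adjusted p = 0.16). All 8 osteoclast markers were detected in both groups and fell with Visomitin, with summed levels of 11000 to 12000 TPM in control and 2910 to 3500 TPM with Visomitin. Erythroid, T cell and B cell markers summed to at most 1.13 TPM in any library. Of 7 neutrophil markers, 5 were listed at 0 in every library, and S100a8 had 8.82 to 19.5 TPM. Stromal markers (6 genes, led by Col1a1 and Col1a2) were present in every library, summing to 213, 111 and 320 TPM in control 1, 2 and 3 and to 74.2, 116 and 163 TPM in Visomitin 1, 2 and 3; 0 of the 5 tested passed between groups, with a median difference of -0.75. The part of these shifts in macrophage, osteoclast and stromal transcripts in the results was not tested. Visomitin 1 stood apart from the other Visomitin libraries on the second principal component (25.1, against -17.2 and -16.8). Leaving it out changed the calls of Atf4, Dld, Pgk1, Mat2a and Ppat among the genes named below, as given there.

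Pck2 and Mthfd2, both encoding mitochondrial enzymes, were higher with Visomitin, 2.22-fold and 1.80-fold, and the other 8 genes did not pass the test. The enzymes of serine synthesis were at nearly the same mean level in both groups for Psat1 and Psph, and Phgdh varied too much between libraries to be called. The cytosolic Mthfd1 had a lower value with Visomitin in every library than in any control, without passing after adjustment (adjusted p = 0.10). Shmt2, the mitochondrial serine hydroxymethyltransferase, had a difference of 0.02. Differences are Visomitin minus control on the log2(TPM + 1) scale, where the added 1 shrinks changes of genes at low TPM, and adjusted p-values are limma's with Benjamini-Hochberg adjustment over all tested genes.

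Of the 10 genes, 2 passed an adjusted p of 0.05 as higher and 0 as lower. Over all tested genes 2.08% passed as higher and 5.03% as lower. The median difference of the 10 was 0.02, beside -0.034 over all tested genes. By compartment, 2 of the 5 mitochondrial genes rose, with a median of 0.32, and 0 of the 5 cytosolic genes passed in either direction, with a median of -0.01. The mitochondrial median was the value of Aldh1l2, the least abundant of the 10, which did not pass (limma adjusted p = 0.37). Without Visomitin 1 Aldh1l2 had 0.14. Shmt2 and Mthfd1l had 0.02 and -0.09. At an unadjusted p under 0.05 there were 3 genes, the risers Pck2 and Mthfd2 and, with a value below 0, Mthfd1, beside 24.4% of all tested genes. These 3 were also those whose group ranges did not overlap, which held for 30.4% of all tested genes, so both counts of 3 were near the background.

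**Figure D1:**
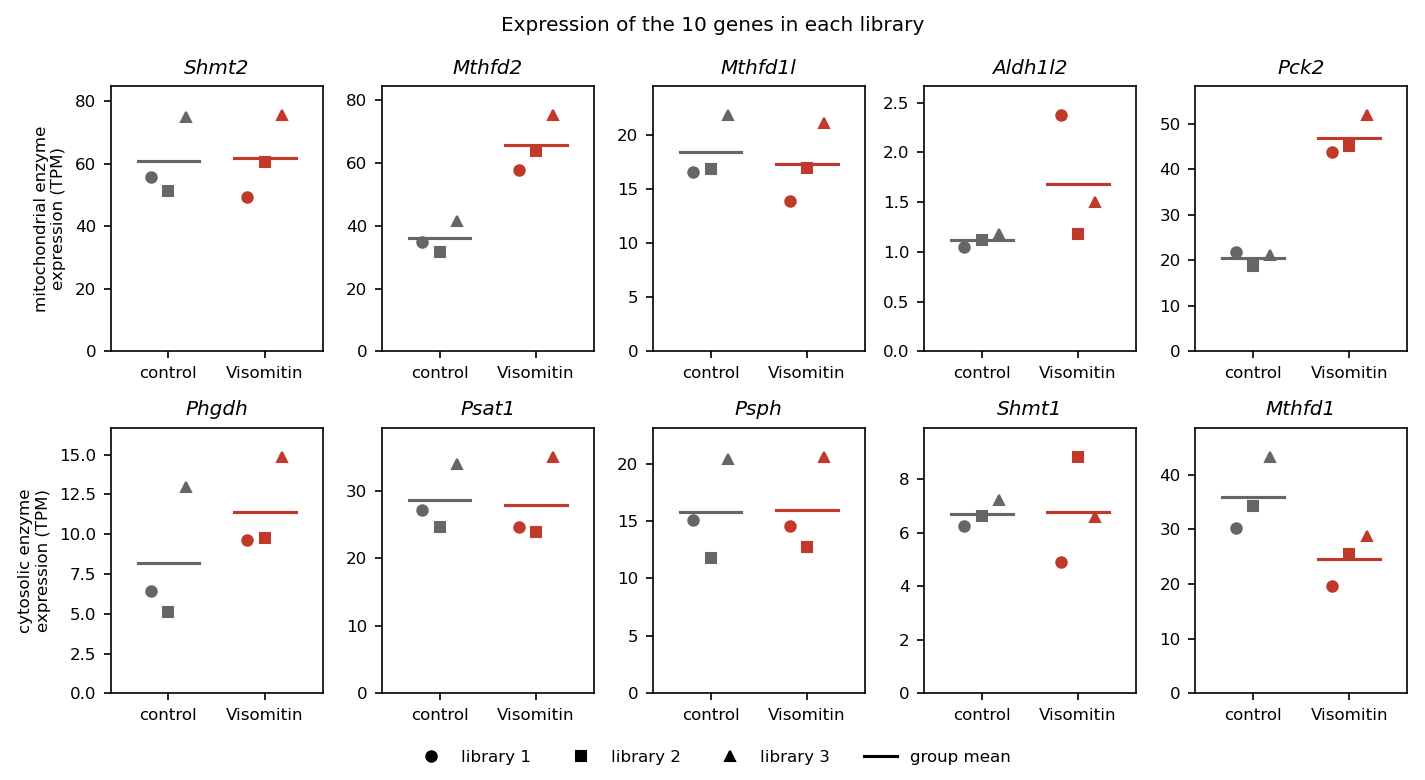
Expression in TPM (vertical axes from 0) of the 5 mitochondrial enzymes (top row) and the 5 cytosolic enzymes (bottom row) in the control and Visomitin libraries; each marker is a library and each line a group mean. Pck2 and Mthfd2 lie higher in every Visomitin library than in any control, Mthfd1 lies lower, and the other 7 overlap.

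Pck2 showed the clearest difference of the 10. Its level was 21.7, 18.8 and 21.2 TPM in control 1, 2 and 3 and 43.7, 45.2 and 51.8 TPM in Visomitin 1, 2 and 3. The 3 Visomitin libraries were thus all well above the 3 controls, with no overlap. The mean went from 20.6 ± 1.58 to 46.9 ± 4.32 TPM (SD, n = 3), and the difference was 1.15 (SE 0.11, 95% interval 0.90 to 1.39, limma adjusted p = 0.00065). This was the 36th largest rise among the 11753 tested genes. The gene lies on chromosome 14 at 55540266 to 55551242, plus strand (ENSMUSG00000040618; GENCODE M21 on GRCm38; the build the authors used is not stated in the labels). Pck1, the gene of the cytosolic PEPCK, was listed at 0 in all 6 libraries.

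Because Pck2 and Mthfd2 rose, the 120 bases before their RefSeq start sites are shown (GRCm38.p6, 5′ to 3′ on the gene's strand). Those of Asns, asparagine synthetase, are shown beside them because Asns is a well-known ATF4 target with a C/EBP-ATF response element and, as given further on, had one of the patterns most like that of Pck2. Capitals mark a match to the core of that element, TGATGNAA, searched on both strands, where N is any base; the search used 250 bases before to 50 after each start.

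Pck2, chr14:55540146-55540265, plus strand: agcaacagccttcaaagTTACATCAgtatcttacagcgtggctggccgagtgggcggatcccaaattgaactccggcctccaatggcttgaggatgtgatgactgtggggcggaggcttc

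Mthfd2, chr6:83317605-83317724, minus strand: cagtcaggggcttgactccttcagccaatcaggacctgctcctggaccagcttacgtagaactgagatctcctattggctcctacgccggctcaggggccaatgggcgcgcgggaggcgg

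Asns, chr6:7693210-7693329, minus strand: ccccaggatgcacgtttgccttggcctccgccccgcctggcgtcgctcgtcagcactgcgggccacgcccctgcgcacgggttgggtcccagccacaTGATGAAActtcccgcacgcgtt

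In Pck2 the match lay on the opposite strand, 103 to 96 bases before the start, and in Asns on the gene's own strand, 23 to 16 bases before it. The Mthfd2 window held no match. That window lies inside the GENCODE gene, whose 5′ end on the minus strand is at 83325908, and the bases around that end were not searched. Of the 10 genes, 9 had promoter entries, 10 entries in all since Psat1 has a pair, and 1 of these entries held the core. Of all 32851 entries of the same length, 3.97% held it. A match describes these letters only, and its absence from a window says nothing about the factor.

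Mthfd2, the mitochondrial methylenetetrahydrofolate dehydrogenase and cyclohydrolase, was at 34.8, 31.7 and 41.6 TPM in the controls and at 58.0, 63.8 and 75.2 TPM with Visomitin. The lowest Visomitin library was above the highest control. The mean went from 36.0 ± 5.04 to 65.7 ± 8.75 TPM (SD, n = 3), a difference of 0.85 (SE 0.13, 95% interval 0.54 to 1.15, limma adjusted p = 0.0089). Its order among the 10 changed with this: in control it came after Shmt2 (60.8 TPM on average) and beside Mthfd1 (35.9 TPM), whose range it overlapped, and with Visomitin it had the highest mean. Its Visomitin range overlapped that of Shmt2, so these neighbours did not differ beyond their spread. Mthfd2 lies on chromosome 6 at 83305691 to 83325908, minus strand (ENSMUSG00000005667). Mthfd2l, a related mitochondrial dehydrogenase, was at 2.39 to 4.81 TPM in control and 2.69 to 3.58 TPM with Visomitin (difference -0.02, adjusted p = 0.97).

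The other mitochondrial folate genes did not pass. Shmt2, which feeds the mitochondrial arm with carbon from serine, was at 55.8, 51.5 and 75.1 TPM in control and at 49.4, 60.7 and 75.5 TPM with Visomitin. The groups overlapped over almost their whole range. The difference was 0.02 (95% interval -0.39 to 0.44, adjusted p = 0.96), which on this scale allows a change from 0.761 to 1.35 times the control level. Mthfd1l, which releases formate from the folate intermediate, was at 16.6, 16.9 and 21.8 TPM in control and at 13.9, 17.0 and 21.0 TPM with Visomitin (-0.09, 95% interval -0.48 to 0.29, adjusted p = 0.78). Aldh1l2, which oxidises the formyl group of folate and yields NADPH, was the least abundant of the 10, at 1.05, 1.12 and 1.18 TPM in control. It was at 2.37, 1.18 and 1.5 TPM in Visomitin 1, 2 and 3, so that the highest value came from a single library (0.32, adjusted p = 0.37). Of its exon bases 14.1% overlap D10Wsu102e on the opposite strand, listed at 0.71 to 0.79 TPM, and the labels do not say whether reads were counted by strand.

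On the cytosolic side Mthfd1, a single protein that does the dehydrogenase, cyclohydrolase and formate-activating steps, was at 30.3, 34.2 and 43.2 TPM in control and at 19.6, 25.4 and 28.8 TPM with Visomitin. The highest Visomitin library was just under the lowest control. The difference of -0.53 (SE 0.17, 95% interval -0.92 to -0.14) had an unadjusted p of 0.013 and missed the threshold after adjustment (limma adjusted p = 0.10). Mthfd1 lies on chromosome 12 at 76255298 to 76319803, plus strand (ENSMUSG00000021048). Shmt1, the cytosolic serine hydroxymethyltransferase, was at 6.25, 6.65 and 7.22 TPM in control and at 4.93, 8.82 and 6.60 TPM with Visomitin. The Visomitin libraries lay on both sides of the controls (-0.01, 95% interval -0.44 to 0.41, adjusted p = 0.97).

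**Figure D2:**
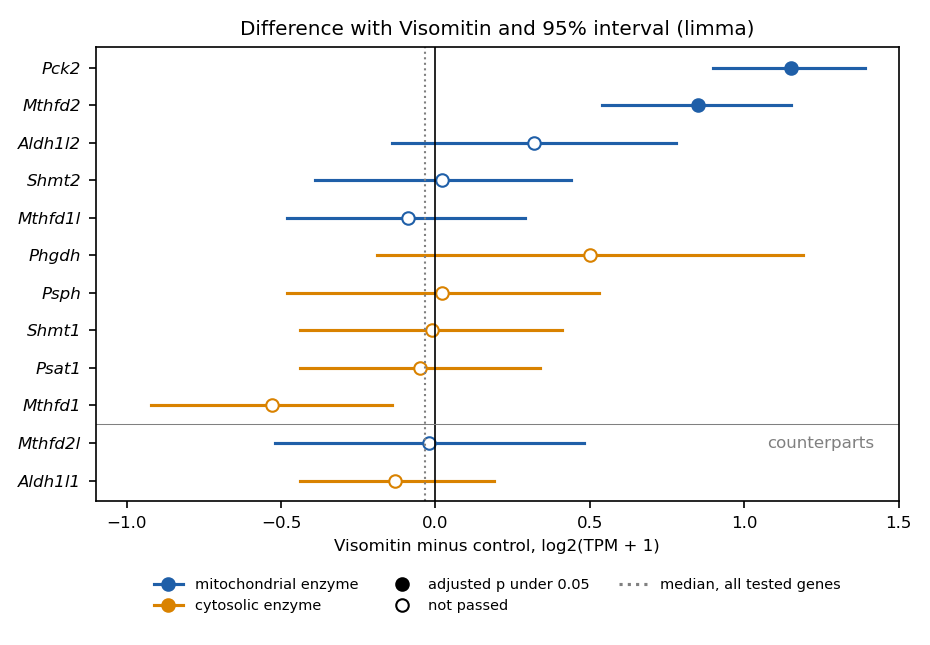
Visomitin minus control difference on the log2(TPM + 1) scale (horizontal axis) with its 95% interval from limma for the 10 genes and, under the line, the counterparts Mthfd2l and Aldh1l1; filled points passed an adjusted p of 0.05. Pck2 (1.15) and Mthfd2 (0.85) are filled, and the interval of Mthfd1 (-0.92 to -0.14) lies below 0 although its adjusted p is 0.10.

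The serine synthesis genes showed how much of their spread lay within the groups. Phgdh, the first enzyme of the pathway, was at 6.46, 5.10 and 12.99 TPM in control 1, 2 and 3 and at 9.61, 9.75 and 14.8 TPM in Visomitin 1, 2 and 3. Control 3 was above 2 of the 3 Visomitin libraries. The difference of 0.50 had a wide interval (SE 0.30, 95% interval -0.19 to 1.19, adjusted p = 0.35), and it was 0.25 without control 2 and 0.85 without control 3 (adjusted p = 0.66 and 0.081). Psat1, the aminotransferase of the second step, was at 27.2, 24.7 and 33.9 TPM in control and at 24.6, 24.0 and 34.9 TPM with Visomitin (-0.05, 95% interval -0.44 to 0.34, adjusted p = 0.90). Psph, the phosphatase of the last step, was at 15.1, 11.8 and 20.4 TPM in control and at 14.6, 12.8 and 20.5 TPM with Visomitin (0.02, 95% interval -0.48 to 0.53, adjusted p = 0.96). For Psat1 and Psph the values of the groups nearly coincided. Phgdh is uncertain on another count: 55.8% of the 31-base words of its transcripts also occur in other annotated genes, mainly Gm7901 (44.8%), which was listed at 0 in all libraries. For the other 9 genes this share was at most 3.67%. Of the exon bases of Psph, 10.4% overlap Cct6a on the opposite strand, at 76.9 to 125 TPM.

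Within the groups most of the 10 genes varied by library in the same way. Control 3 was the highest control for 9 of the 10 genes, beside 36.8% of all tested genes, and Visomitin 3 the highest Visomitin library for 8. Both held for 7 of the 10, and for 24.0% of all tested genes. Phgdh deviated from its group mean by 0.70 in control 3 and by 0.38 in Visomitin 3, Psph by 0.39 and 0.37, and Shmt2 by 0.32 and 0.30. Pck2 deviated by 0.05 and 0.14. The summed stromal markers deviated by 0.70 in control 3 and 0.54 in Visomitin 3, and by -0.81 in control 2 and -0.59 in Visomitin 1. The summed proliferation genes (11, such as Mki67 and Pcna, 0 of which passed the test between groups) deviated by 0.13 and 0.22 in the same libraries numbered 3. The part of these genes in the spread of the 10 was not tested. Without both libraries numbered 3, chosen after seeing the data, Pck2 had a difference of 1.10 (adjusted p = 0.0040) and Mthfd2 of 0.85 (adjusted p = 0.011), and Phgdh of 0.66 did not pass (adjusted p = 0.087).

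**Figure D3:**
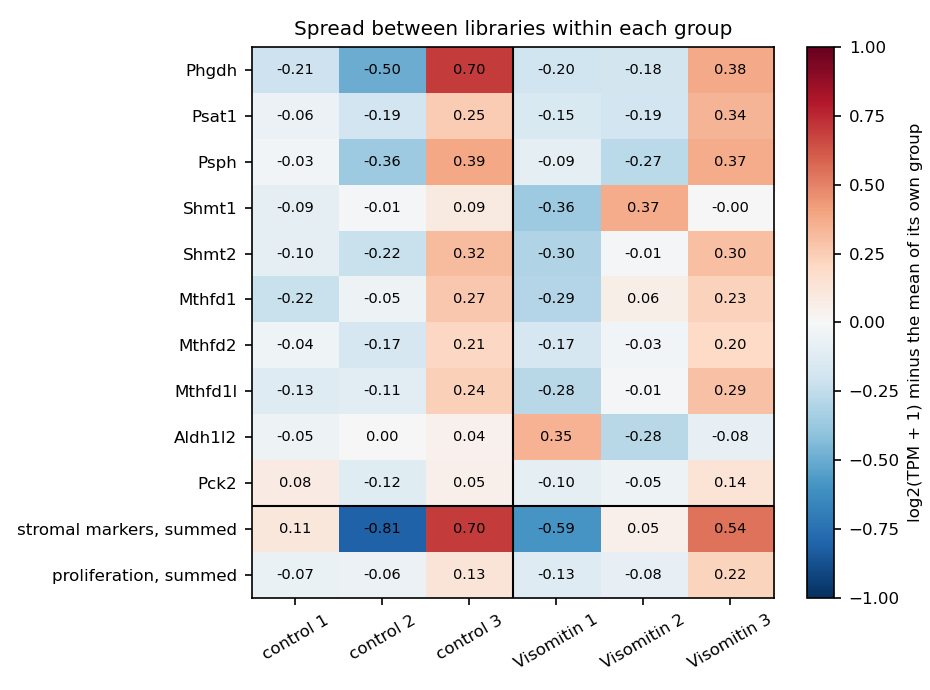
Deviation of each library (columns) from the mean of its own group on the log2(TPM + 1) scale for the 10 genes and, under the line, the summed stromal markers and proliferation genes; red is above and blue below the group mean. Control 3 and Visomitin 3 are red for most rows, with 0.70 and 0.38 for Phgdh and 0.70 and 0.54 for the stromal sum.

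The balance of the compartments can be read within each library. Pairs of genes for the same step were compared as log2 ratios of TPM + 1. Mthfd2 was 1.15, 0.926 and 0.963 times Mthfd1 in control 1, 2 and 3, and 2.95, 2.51 and 2.61 times Mthfd1 in Visomitin 1, 2 and 3. Mthfd2 therefore made up 48.1% to 53.5% of the TPM of this pair in control and 71.5% to 74.7% with Visomitin. Mthfd2l, at 2.39 to 4.81 TPM in control and 2.69 to 3.58 TPM with Visomitin, was not counted in these shares. The difference in log2 ratio was 1.38, or 2.60-fold, larger than the SDs of 0.16 in control and 0.11 with Visomitin. It holds the rise of Mthfd2 (0.85) and the lower values of Mthfd1 (-0.53), which did not pass (limma adjusted p = 0.10).

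Mthfd1l was 0.547, 0.493 and 0.504 times Mthfd1 in control and 0.707, 0.667 and 0.731 times Mthfd1 with Visomitin. These ranges did not overlap either, with a difference of 0.44 on the log2 scale; Mthfd1l itself had a difference of -0.09, and the ratio shares the lower values of Mthfd1. For serine hydroxymethyltransferase the groups overlapped, with 88.6% to 91.2% of transcripts mitochondrial in control and 87.3% to 92.0% with Visomitin (difference 0.04, SDs 0.22 and 0.34). Aldh1l2 made up 7.78%, 7.60% and 10.3% of the sum with its cytosolic counterpart Aldh1l1 in control and 18.9%, 8.66% and 12.7% with Visomitin, which overlap (0.45). Aldh1l1 was at 10.3 to 13.6 TPM in control and 10.2 to 12.45 TPM with Visomitin.

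Over the 4 pairs an exact permutation test (two-sided, over the group labels) gave p = 0.1 for Mthfd2 to Mthfd1 and for Mthfd1l to Mthfd1, 0.2 for Aldh1l2 to Aldh1l1 and 1 for Shmt2 to Shmt1. The adjusted values over the 4 pairs in the same permutation tests were 0.2, 0.2, 0.27 and 1. With 3 against 3 libraries 0.1 is the smallest p the test can give, so no pair could pass a threshold of 0.05. The pair of PEPCK genes gave no ratio, since Pck1 was listed at 0.

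**Figure D4:**
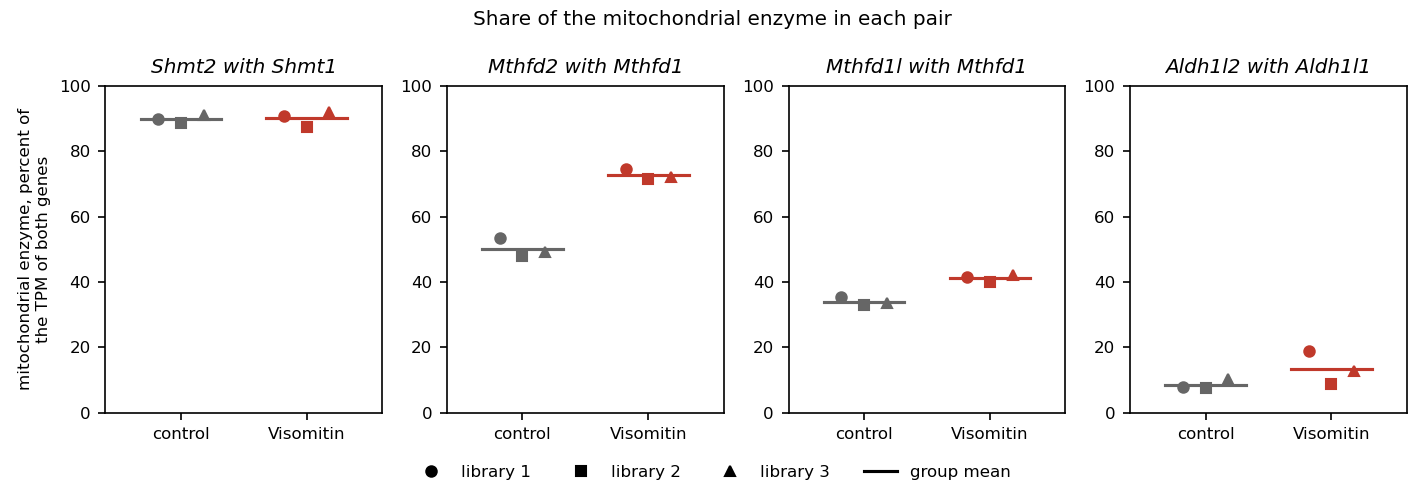
Share of the mitochondrial enzyme's TPM in the TPM of both genes of a pair, in percent (axes start at 0), for the 4 pairs; each marker is a library and each line a group mean. For Mthfd2 with Mthfd1 the Visomitin libraries (71.5% to 74.7%) lie above the controls (48.1% to 53.5%), while Shmt2 with Shmt1 stays between 87.3% and 92.0% in all libraries.

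In the surrounding pathways all calls were lower. Of 66 further genes in 6 lists, 57 were tested, 7 fell (12.3%, beside 5.03% of all tested genes) and 0 rose (beside 2.08%). Their median difference was -0.19, and 75.4% had a value below 0, beside -0.034 and 55.7% over all tested genes. At an unadjusted p under 0.05, 3 were higher (5.26%, beside 9.12% of all tested genes) and 20 lower (35.1%, beside 15.2%). The lists were written with earlier results of these data known, and their counts describe these libraries only.

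In folate uptake and retention 1 of 6 tested genes fell, 0 rose, and the median was -0.31. The gene that fell was Folr2, a folate receptor of macrophages, from 293 ± 7.90 to 221 ± 5.48 TPM (SD, n = 3; -0.40, adjusted p = 0.014). Fpgs, which adds the glutamate tail that keeps folate in the cell, was at 9.85 ± 0.99 and 6.51 ± 1.57 TPM (-0.55, adjusted p = 0.090). Ggh, which removes that tail, was at 21.4 ± 1.78 and 26.9 ± 2.64 TPM (0.32, adjusted p = 0.13), and the folate transporter Slc46a1 had a difference of -0.31 (adjusted p = 0.27). Fpgs and Ggh, with opposite roles, had values of opposite sign, and neither passed.

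In the folate and methionine cycles 1 of 10 tested genes fell, 0 rose, and the median was -0.14. Mat2a, which makes S-adenosylmethionine, fell from 60.8 ± 8.23 to 36.1 ± 7.31 TPM (SD, n = 3; -0.75, adjusted p = 0.026). Ahcy, which clears the product of methylation, had -0.26 (adjusted p = 0.15) and Mthfs -0.19 (adjusted p = 0.25).

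The glycine cleavage system, which hands a glycine carbon to mitochondrial folate, had 0 of 6 tested genes passing, with a median of -0.28; 3 were lower at an unadjusted p under 0.05, as were 15.2% of all tested genes. Gldc, its decarboxylase subunit, was at most at 0.20 TPM and was not tested. Dld (-0.51, adjusted p = 0.051) and Gcsh (-0.38, adjusted p = 0.10) encode its subunits. Dld passed without control 3 (-0.62, adjusted p = 0.046) and without Visomitin 1 (-0.60, adjusted p = 0.037), and missed the threshold without any other single library. Lias (-0.37, adjusted p = 0.065) makes the lipoyl cofactor of the system. Amt had 0.42 (adjusted p = 0.33). Dld is also a subunit of other mitochondrial dehydrogenases.

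Among 13 genes of purine synthesis, a main user of cytosolic formyl folate, 1 fell and 0 rose, with a median of -0.29 and 11 values below 0. Ppat, the first committed enzyme, fell from 8.59 ± 0.35 to 5.58 ± 0.63 TPM (SD, n = 3; -0.55, adjusted p = 0.038). Gart and Atic, the enzymes that take up formyl groups from folate, had -0.45 and -0.55 (adjusted p = 0.11 and 0.10), and Adssl1, an adenylosuccinate synthetase, had -0.38 (adjusted p = 0.070). Their sign was that of Mthfd1.

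Of 10 tested genes of serine transport and use, 1 fell and 0 rose (median -0.07). Slc1a5, a transporter of glutamine and other neutral amino acids, fell from 71.3 ± 4.66 to 43.5 ± 9.22 TPM (SD, n = 3; -0.72, adjusted p = 0.027). Sfxn1, which carries serine into mitochondria, was at 22.4 ± 1.73 and 17.1 ± 2.88 TPM (-0.38, adjusted p = 0.13). Srr, the serine racemase, had 0.34 (adjusted p = 0.21) and the amino acid transporter Slc38a2 0.19 (adjusted p = 0.33).

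Around Pck2, 3 of 12 tested genes of phosphoenolpyruvate, oxaloacetate and pyruvate metabolism fell and 0 rose (median -0.27). They were Mdh2 (-0.95, adjusted p = 0.0020) and Mdh1 (-0.58, adjusted p = 0.0045), the malate dehydrogenases that form oxaloacetate, and Me1 (-0.70, adjusted p = 0.012), the cytosolic malic enzyme. The glycolytic gene Pgk1 had 0.34 (adjusted p = 0.051) and passed without Visomitin 1 (0.38, adjusted p = 0.036). Mdh2, which makes the substrate of PCK2 in the same compartment, was at 562 ± 16.8 and 293 ± 40.9 TPM (SD, n = 3), opposite in direction to Pck2. Fbp1, of gluconeogenesis, was listed at 0 in all libraries.

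The calls of Folr2, Mat2a, Ppat and Slc1a5 were lost when some single libraries were left out, with differences of similar size. Folr2 missed the threshold without control 1, 2 or 3 or Visomitin 2 (-0.43 to -0.39, adjusted p of 0.051 to 0.074) or without both libraries numbered 3 (-0.41, 0.091). Slc1a5 missed it without the same 4 single libraries (-0.76 to -0.67, 0.0649 to 0.0925). Mat2a missed it without control 1, 2 or 3 or Visomitin 1 or 2 (-0.82 to -0.64, 0.051 to 0.0895), and Ppat without the same 5 (-0.57 to -0.48, 0.056 to 0.13). Folr2 and Slc1a5 passed without Visomitin 1, and all 4 genes passed without Visomitin 3. Leaving out a library also costs a residual degree of freedom. Mdh1, Mdh2 and Me1 passed whichever single library was left out. Of the 57 genes, 3 fell without control 1, control 2 or Visomitin 2 and 4 without control 3. Over all tested genes 232, 325, 305 and 279 fell in these fits, in the same order, against 591 with every library.

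**Figure D5:**
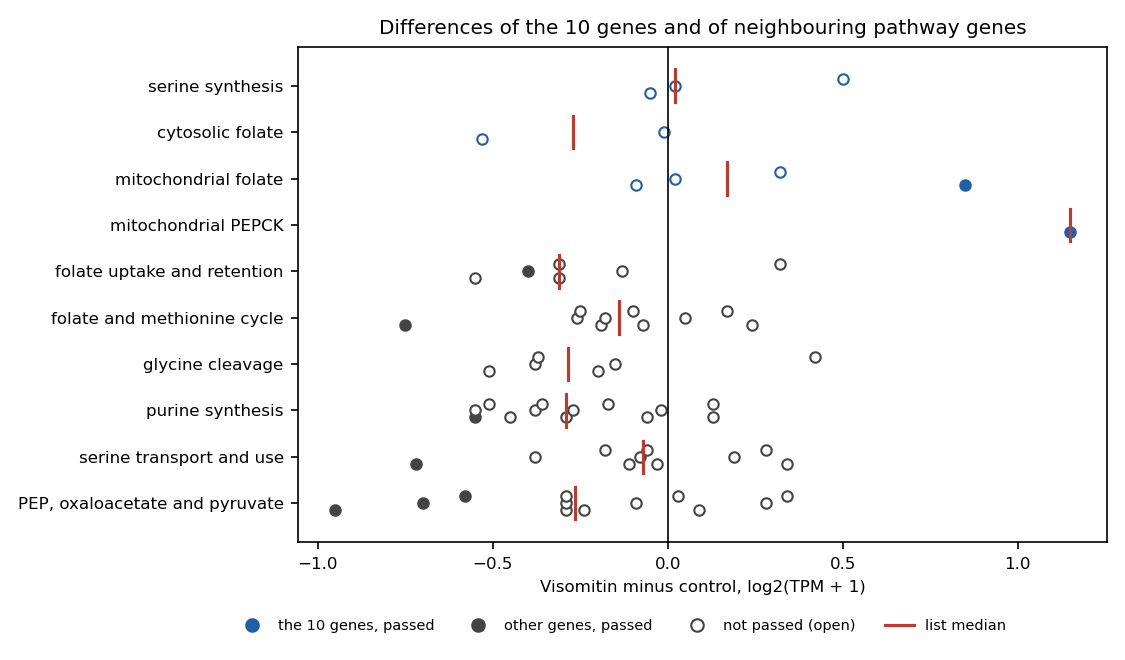
Visomitin minus control differences on the log2(TPM + 1) scale (horizontal axis) of the tested genes in each list; blue points are the 10 genes, grey points the neighbouring pathway genes, filled points passed an adjusted p of 0.05 and red bars are list medians. The filled blue points, Mthfd2 and Pck2, lie above 0, and the 7 filled grey points lie below it.

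Of 11 genes of the ATF4 response and its regulators, 3 rose (27.3%, beside 2.08% of all tested genes) and 0 fell (beside 5.03%). At a limma unadjusted p under 0.05, 4 were higher (36.4%, beside 9.12% of all tested genes) and 2 lower (18.2%, beside 15.2%). This list too was written with earlier results of these data known, and its counts describe these libraries only. The median of -0.01 was taken over regulators and response genes together. Asns rose from 19.9 ± 2.46 to 41.6 ± 5.51 TPM (SD, n = 3; 1.03, adjusted p = 0.0034), as did Trib3 (2.67, adjusted p = 7.86e-05) and Ddit3 (1.41, adjusted p = 0.00081). Atf4 itself was at 98.8, 104 and 110.0 TPM in control and at 122, 132 and 159 TPM with Visomitin. Its ranges did not overlap, and it did not pass (0.39, adjusted p = 0.070), though it did after median-ratio scaling (adjusted p = 0.023), under quantile normalization (0.021), with array weights (0.0105) and without Visomitin 1 (0.035). Phgdh, Psat1, Psph and Shmt2, which are also described as ATF4 targets, had intervals that include 0.

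Likeness of pattern was measured as the root mean square difference of log2(TPM + 1) values over the 6 libraries, with each gene centred on its control mean. For Pck2 the nearest genes were Hpse (0.113), which encodes heparanase, Zfr2 (0.131) and Asns (0.135). Zfr2 was at low levels, with means of 0.53 TPM in control and 2.23 TPM with Visomitin. Hpse went from 41.1 to 91.0 TPM on average (1.13, adjusted p = 0.00056). For Shmt2 they were Carm1 (0.0348), an arginine methyltransferase, Vars (0.0516), the valyl-tRNA synthetase, and Enkd1 (0.0591), none of which passed the test. For Phgdh the nearest genes were less close: Shox2 (0.198), Hk2 (0.217), a hexokinase, and Slc16a3 (0.224), a lactate transporter. Shox2 was also low, with means of 0.903 TPM in control and 1.25 TPM with Visomitin. With 6 libraries in 2 groups these distances describe the pattern only.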

How the data were processed

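RNA was sequenced from 6 libraries, 3 control and 3 Visomitin, per the labels' protocols as stranded mRNA. The deposited values are TPM per gene, which the authors scaled within each library; fastp, HISAT2 and StringTie are named in the submitters' processing notes, and their versions, the build, the annotation and the strand setting are not stated in those notes or the labels. TPM keep no depth, so no counting interval is given. Symbols came from a reference table (51884 of 57180 identifiers matched).

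The 11753 genes that reached 1 TPM in 3 or more libraries were fitted as log2(TPM + 1), pseudocount 1, with limma 3.58.1 in R 4.3.3 (eBayes with trend, group as the only term, two-sided, Benjamini-Hochberg, threshold 0.05). The code was tested on simulated data. Ratios were tested by exact permutation (scipy 1.17.1), and 3 against 3 cannot give a p under 0.1. Named genes were the 10, the counterparts Pck1, Mthfd2l and Aldh1l1, Atf4, up to 4 genes with the lowest p in each pathway list, and the 3 nearest patterns of Phgdh, Shmt2 and Pck2. Other genes (Fbp1, Gldc, Mertk, Lyz2, Adgre1, Itgam, Cd68) were named after their values were seen. Csf1r, S100a8, Col1a1, Col1a2, Mki67 and Pcna are examples from their lists that no naming rule chose. A gene that the rule names is not reported here. The members and lists were chosen with earlier results of these data known. Promoter sequences are RefSeq's on GRCm38.p6. Alternatives, 15 planned and 1 added after seeing the data, are in the closing section.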

Additional observations from a re-analysis of the deposited data

How the results depend on the processing

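Pck2 and Mthfd2 passed as higher in all 16 alternatives, with differences of 1.02 to 1.20 (adjusted p up to 0.0062) and 0.75 to 0.95 (adjusted p up to 0.048). With 1 library left out, 2 genes were higher and 0 lower each time. With the library number as a replicate block, 1 gene was lower, Mthfd1 (-0.53, adjusted p = 0.020), as with array weights, which gave 1 lower gene (Mthfd1, -0.41, adjusted p = 0.037) and weighted Visomitin 1 by 0.257 and Visomitin 2 by 4.16. Libraries sharing a number had residual correlations of 0.046, 0.020 and 0.17, and those of different numbers -0.145 to 0.0865. The 0.17 of the libraries numbered 3 was the highest. The labels do not say whether the numbers pair the libraries, and the main fit did not pair them. The block changed no other call among the 10, and Atf4 passed with it (0.39, limma adjusted p = 0.035). Of the 57 pathway genes 12 fell and 1 rose with it, and 20 and 4 with array weights, against 7 and 0. Over all tested genes 799 fell and 308 rose with the block, and 1572 and 1263 with array weights, against 591 and 244. Of the 57, 4 fell without a filter on low values, and also 4 without both libraries numbered 3. Me1 was among the losses in the latter fit (limma adjusted p = 0.065). Over all genes tested in these fits 308 and 321 fell. With a mean of at least 5 TPM 2 of the 57 rose, and after median-ratio scaling 1. With a library left out 0 to 2 of the 57 rose and 3 to 9 fell. Over all genes tested in these fits 261, 481 and 54 to 411 rose, and 232 to 577 fell with a library left out.

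The differences that changed sign had passed in no fit. Under median-ratio scaling Shmt1 had 0.02 and Mthfd2l 0.01; under quantile normalization Psat1 had 0.01, Shmt1 0.03 and Mthfd2l 0.07; with array weights Psph had -0.06, Shmt1 0.28 and Mthfd2l 0.04. With a library left out Psat1 ranged from -0.22 to 0.08, Psph from -0.16 to 0.22, Shmt1 from -0.20 to 0.17, Shmt2 from -0.13 to 0.18, Mthfd1l from -0.24 to 0.05, Mthfd2l from -0.17 to 0.21 and the Shmt2 to Shmt1 ratio from -0.12 to 0.22. Without both libraries numbered 3 that ratio was -0.01 and Shmt1 0.04. The cause of these changes was not tested. The number of libraries limits the precision, and depth is unknown.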
